A study of Mus musculus with 18 samples.

Results

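The Gimap genes encode the GTPases of the immunity-associated protein family, and the 8 listed symbols of the mouse, Gimap1, Gimap3, Gimap4, Gimap5, Gimap6, Gimap7, Gimap8 and Gimap9, were followed here through hematopoietic stem cells (HSCs) of young and aged mice. The rule takes members by symbol and uses no measured value. All 8 were among the 24421 gene symbols of the deposited count table, and all 8 passed the filter on low counts that left 12808 genes to test. No other symbol beginning with Gimap was in the table.

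GIMAP proteins carry a GTP-binding domain related to that of the septins and of a plant resistance protein, and most are anchored to or associated with intracellular membranes. They are best known from lymphocytes, in which they bear on survival, organelle integrity and autophagy, and loss of Gimap1, Gimap5 or Gimap6 reduces peripheral T cells in mice. Loss of Gimap5 in mice has also been linked to defects of hematopoietic stem and progenitor cells.

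The study sorted 3 fractions from bone marrow of Hoxb5-tri-mCherry mice, a reporter strain in which mCherry marks cells that express Hoxb5. LT-HSCs (long-term, reporter-positive), ST-HSCs (short-term, reporter-negative) and bulk-HSCs (the immunophenotypic HSC gate that holds both) were taken from mice aged 2 to 3 months (young) or 23 to 25 months (aged), giving 6 groups of 3 libraries and 18 libraries in all. All groups carry the reporter allele, and none is a knockout. The RNA-seq served the study's question whether myeloid genes are enriched with age in each fraction. No source states that the replicates came from separate mice, so p-values measure the spread among these libraries, which may be technical. Because the samples are sorted populations, a lower level can mean fewer cells with the RNA or less RNA per cell, and the data cannot tell these apart.

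Depth was 16495048 to 22973844 counts per library. Young libraries detected 11548 to 13876 genes and aged libraries 13526 to 14133. Among 9653 genes whose median over the libraries was 200 counts or more, 1 to 163 were at 0 in a young library and 2 to 6 in an aged one, and the highest numbers were in young LT-HSC replicate 3 (163) and young ST-HSC replicate 3 (160). Estimates without both are given for Gimap3, Gimap1, Gimap5, Gimap6, Gimap8, Gimap9 and Gimap4 in some of the comparisons. Hoxb5 was at 8.20 to 40.3 CPM (read counts scaled to a common library size with the trimmed mean of M-values, TMM) in young LT-HSCs and 0 to 3.83 in young ST-HSCs, and at 18.4 to 26.0 against 0.397 to 4.56 in aged mice. The HSC markers Kit (1075 to 1570 CPM), Procr (78.1 to 157) and Slamf1 (13.9 to 75.7) were present in all 18 libraries. Of 11 HSC markers tested, on average over the fractions Slamf1 (0.68 on the log2 scale) and Procr (0.40) rose with age. Cd34 fell by 1.06 and Flt3 by 1.32 (adjusted p at most 0.00721 for these 4, where 6.75% of all genes were called).

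The 8 genes form a cluster on mouse chromosome 6, at chr6:48647234-48770851 of mm10, a span of 123.6 kb. In genomic order they are Gimap8, Gimap9, Gimap4, Gimap6, Gimap7, Gimap1, Gimap5 and Gimap3. Gimap6 and Gimap3 lie on the minus strand, and the other 6 on the plus strand. Each gene is a compact unit of 2 to 5 exons in its longest coding transcript, with a coding sequence of 873 (Gimap9) to 2064 bases (Gimap8). The Gimap8 protein is the large member, with several GTP-binding domains. A readthrough transcript named Gm28053 overlaps Gimap7, Gimap1 and Gimap5 on the same strand, and Gimap1os runs antisense to Gimap1. Neither has a row of its own in the table, and the strand setting of the counting is not given in the sources used here, so reads of these transcripts could not be separated from those of the 3 genes.

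**Figure D1:**
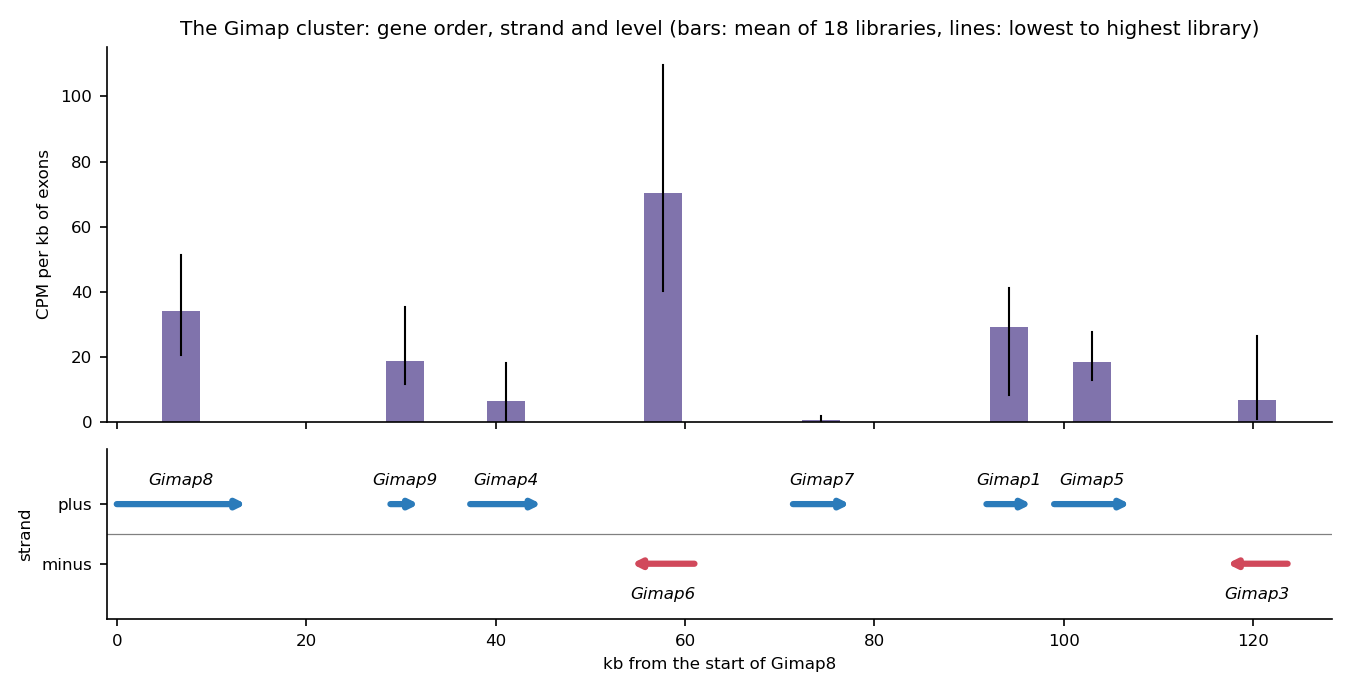
The x axis gives the distance in kb from the start of Gimap8. The lower panel draws each Gimap gene as an arrow on its strand, and the upper panel gives its mean CPM per kb of exons over the 18 libraries, with a line from the lowest to the highest library. Gimap6 is highest, at 70.2, and Gimap7 lowest, at 0.591.

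Gimap3 and Gimap5 are near-copies of each other, which bears on how their reads were assigned. Their coding sequences were identical at 90.39% of 895 aligned bases, and the next closest pair, Gimap7 and Gimap9, at 66.59%. Across the 633 windows of 127 bases (the read length) without a gap, a median of 3 bases differed between Gimap3 and Gimap5. The stretch of 240 coding bases around their longest identical run, of 140 bases, is shown to make this plain. It lies at chr6:48765631-48765870 on the minus strand in Gimap3 and at chr6:48752634-48752873 on the plus strand in Gimap5 (mm10), inside a coding exon of each, and the capitals mark the 4 bases that differ.
Gimap3: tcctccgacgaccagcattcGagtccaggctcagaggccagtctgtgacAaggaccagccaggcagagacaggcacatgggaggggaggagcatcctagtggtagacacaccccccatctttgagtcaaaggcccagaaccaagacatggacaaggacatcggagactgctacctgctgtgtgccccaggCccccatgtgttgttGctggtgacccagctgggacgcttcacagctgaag
Gimap5: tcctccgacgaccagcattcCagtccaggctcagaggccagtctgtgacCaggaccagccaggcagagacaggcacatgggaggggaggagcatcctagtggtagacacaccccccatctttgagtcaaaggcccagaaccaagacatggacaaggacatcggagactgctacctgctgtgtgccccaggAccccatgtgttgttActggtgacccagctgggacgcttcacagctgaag
Reads that lie wholly inside the identical run could come from either gene, although the mate of such a read can lie outside it. Such words of 127 bases made up 0.571% of all those of the Gimap3 transcripts and 0.328% of those of Gimap5, 14 words in each. No member shared one with a gene outside the family among those searched. The overlapping Gm28053 and Gimap1os were left out of that search, so words shared with them were not counted. The Gimap3 and Gimap5 values are uncertain to the extent that reads were split between them, and how the authors' counting treated such reads is not given in the sources used here.

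The promoters of Gimap3, Gimap5 and Gimap6 are shown next, because Gimap3 was the member with an age effect past the threshold, Gimap5 is its near-copy, and Gimap6 had the highest level per kb. Each runs from 250 bases before to 50 after the start of the RefSeq transcript (GRCm38.p6, the assembly of mm10), 5′ to 3′ on the strand of the gene, at chr6:48770802-48771101 for Gimap3 (minus), chr6:48745947-48746246 for Gimap5 (plus) and chr6:48708195-48708494 for Gimap6 (minus). Capitals mark a match to AGGAAG, a core that ETS factors bind, on either strand.
Gimap3: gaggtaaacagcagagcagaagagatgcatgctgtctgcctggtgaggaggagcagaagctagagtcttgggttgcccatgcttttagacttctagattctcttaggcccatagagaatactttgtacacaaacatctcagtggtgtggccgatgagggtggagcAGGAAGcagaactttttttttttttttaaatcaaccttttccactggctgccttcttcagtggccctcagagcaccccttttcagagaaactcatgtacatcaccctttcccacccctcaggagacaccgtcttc
Gimap5: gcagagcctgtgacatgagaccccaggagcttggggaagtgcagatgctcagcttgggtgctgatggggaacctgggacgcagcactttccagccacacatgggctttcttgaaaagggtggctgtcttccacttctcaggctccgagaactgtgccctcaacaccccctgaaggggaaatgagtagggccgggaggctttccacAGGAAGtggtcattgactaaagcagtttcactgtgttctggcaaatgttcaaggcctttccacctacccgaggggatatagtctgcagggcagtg
Gimap6: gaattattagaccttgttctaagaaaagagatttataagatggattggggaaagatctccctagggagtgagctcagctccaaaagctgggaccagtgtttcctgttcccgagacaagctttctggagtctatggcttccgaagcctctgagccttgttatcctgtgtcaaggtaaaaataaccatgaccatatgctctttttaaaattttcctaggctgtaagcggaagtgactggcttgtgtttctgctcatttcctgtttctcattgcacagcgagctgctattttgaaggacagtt
This core was present in 7 of the 9 RefSeq promoters of the family (Gimap8 has 2) and in 35.35% of the 32851 promoters searched. The letters AGGAAG were absent on either strand from the Gimap6 window and from 1 of the Gimap8 windows. Other forms of the ETS site were not searched. The core that RUNX factors bind, TGTGGT on either strand, was present in 3 of 9 (Gimap1, Gimap4 and Gimap7), beside 16.76% of all promoters. The site of GATA factors, searched likewise as AGATAA, was present in 0 of 9, beside 11.18% of all. No match of 1 motif is also a match of another, and a match is a description of the letters and not evidence of binding.

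Levels of different members were compared per kb of exon length. Gimap6, which binds an ATG8-type protein and takes part in autophagy, had the highest level, 70.2 CPM per kb over the 18 libraries, with single libraries between 40.3 and 110. Gimap8 followed at 34.2, then Gimap1 at 29.2, Gimap9 at 18.7, Gimap5 at 18.4, Gimap3 at 6.61, Gimap4 at 6.34 and Gimap7 at 0.591. A few steps in this order are small against the spread of the libraries (Gimap9 with Gimap5, Gimap3 with Gimap4), and with the longest annotated transcript as the length Gimap1 moved above Gimap8 and Gimap5 above Gimap9. In CPM, Gimap6 was at the 95.6th percentile of the 12808 tested genes, and Gimap7 at the 2.60th. The members also differed in spread. The coefficient of variation of CPM over the 18 libraries was between 23.5% (Gimap5) and 32.9% (Gimap9) for Gimap1, Gimap5, Gimap6, Gimap8 and Gimap9, and 97.5% for Gimap3, 76.0% for Gimap4 and 102% for Gimap7.

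**Figure D2:**
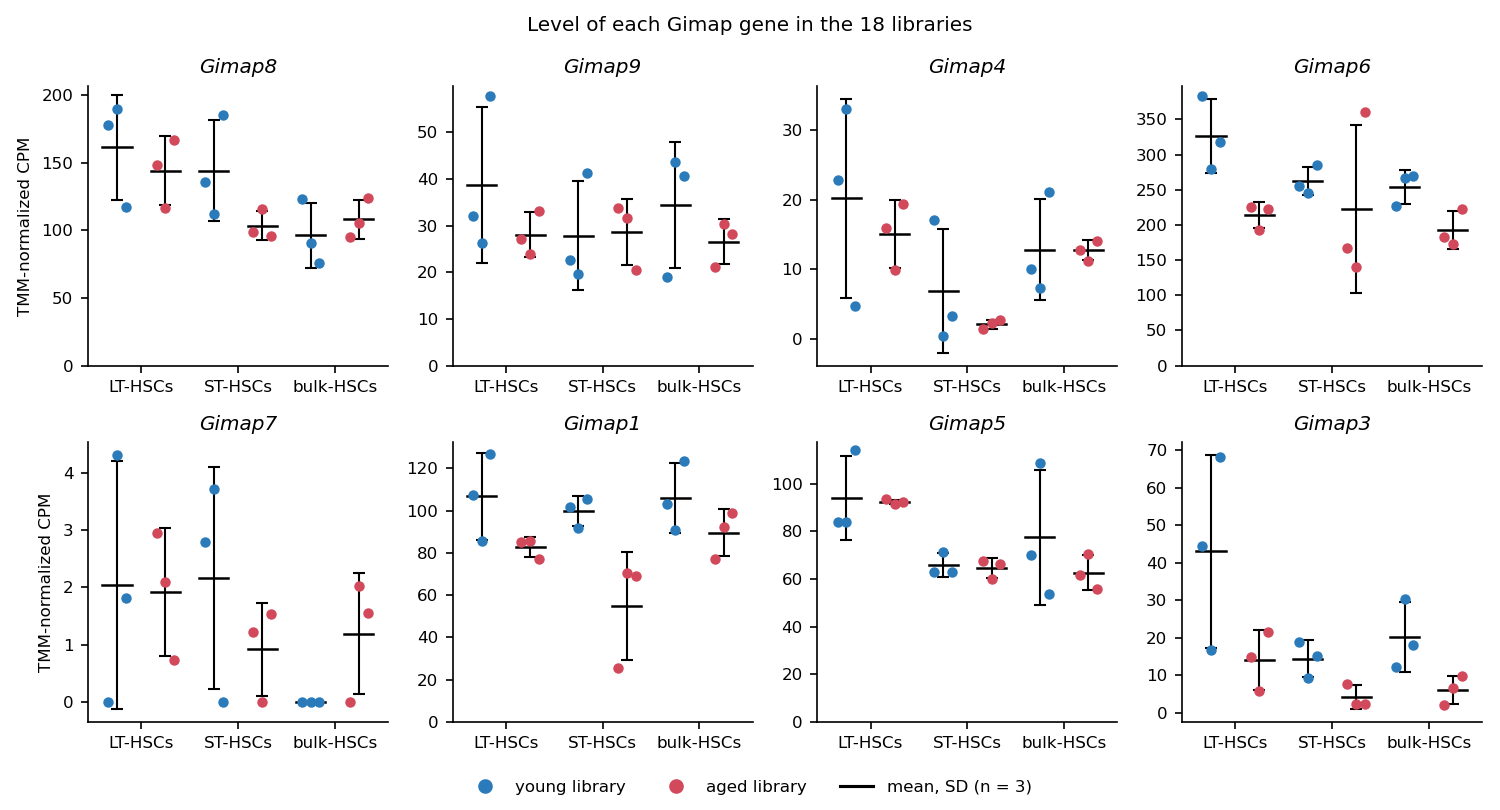
Each panel gives the TMM-normalized CPM of 1 Gimap gene, in cluster order, in the 18 libraries. Points are libraries, blue for young and red for aged, and black lines give the mean and SD of 3 libraries. For Gimap3 the aged libraries lie below the young ones among ST-HSCs and among bulk-HSCs, and Gimap7 is at 0 in all 3 young bulk-HSC libraries.

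Gimap3 was the member whose age effect passed the test, and its mean level in all libraries was more than 3-fold lower in aged than in young cells of each fraction. Its protein sits on membranes of mitochondria and the endoplasmic reticulum and has been linked to the segregation of mitochondrial DNA. In LT-HSCs, Gimap3 was at 44.4, 16.8 and 68.1 CPM in the young libraries and 14.9, 5.77 and 21.7 CPM in the aged ones. The lowest young value lay within the aged range, and the other 2 young values lay above it.

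In ST-HSCs the young Gimap3 libraries were at 19.0, 9.29 and 15.04 CPM and the aged at 7.81, 2.32 and 2.28. In bulk-HSCs they were at 12.3, 30.5 and 17.98 CPM against 2.203, 6.53 and 9.72. Every young library was above every aged one in these 2 fractions. The mean was 3.06-fold higher in young than in aged LT-HSCs, 3.49-fold higher in ST-HSCs and 3.29-fold higher in bulk-HSCs.

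Averaged over the fractions, Gimap3 fell by 1.71 on the log2 scale with age (SE 0.39, adjusted p = 0.0106, edgeR's quasi-likelihood test over 12808 genes), 1 of 8 members called where 6.75% of all genes tested were called. Within single fractions the estimates were -1.61 (SE 0.66, adjusted p = 0.462) for LT-HSCs, -1.80 (SE 0.67, adjusted p = 0.309) for ST-HSCs and -1.72 (SE 0.67, adjusted p = 0.241) for bulk-HSCs, and none passed on its own. Single libraries moved them, to -1.12 in LT-HSCs without young replicate 3 and to -2.65 in ST-HSCs without aged replicate 1. The averaged p would be too small if fractions of 1 number came from the same mice. With the young LT-HSC and ST-HSC libraries numbered 3 both left out, the averaged estimate was -1.53 (adjusted p = 0.0313). The call was lost when the model also held how many genes each library detected, a number that itself differs with age, and the estimate was then -1.12 (adjusted p = 0.549). Across the libraries, Gimap3 and the number of detected genes had r = -0.60 over all 18, -0.38 over the 9 young and 0.25 over the 9 aged, and the part of that number in the result was not tested.

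Because Gimap3 and Gimap5 share sequence, their ratio and sum were set beside the single values. The ratio of Gimap3 to Gimap5 counts was 0.20 to 0.596 in young and 0.0629 to 0.235 in aged LT-HSCs, which overlap. It was 0.130 to 0.302 in young and 0.0344 to 0.115 in aged ST-HSCs, and 0.175 to 0.335 against 0.0357 to 0.174 in bulk-HSCs, with no overlap in either, though by a small margin in each. The sum of the 2 genes was 101 to 182 CPM in young and 97.4 to 114 CPM in aged LT-HSCs, 77.9 to 81.8 against 62.3 to 75.5 CPM in ST-HSCs and 71.7 to 139 against 64.0 to 76.9 CPM in bulk-HSCs, without overlap in ST-HSCs.

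Gimap5 itself, the member most studied for the survival of T cells and for HSC defects when lost, did not pass in any age comparison. In LT-HSCs it was at 84.0, 84.0 and 114 CPM in young and 93.5, 91.6 and 92.3 CPM in aged mice. The aged libraries lay inside the young range. The values were 62.9, 71.6 and 62.8 CPM against 67.7, 60.0 and 66.3 in ST-HSCs, and 70.0, 109 and 53.7 CPM against 61.8, 70.4 and 55.9 in bulk-HSCs, with overlap in both. By fraction, its log2 difference by age was -0.02 (SE 0.21) for LT-HSCs, -0.02 (SE 0.21) for ST-HSCs, -0.31 (SE 0.21) for bulk-HSCs and -0.12 (SE 0.12, adjusted p = 0.676) on average.

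Gimap1, needed for the development and survival of T and B cells, was lower in the aged libraries of 2 fractions, and its average difference came close to the threshold. In ST-HSCs it was at 102, 91.8 and 105 CPM in young and 25.5, 70.3 and 69.2 CPM in aged mice, so the groups did not overlap and aged replicate 1 stood far below the others. In LT-HSCs the values were 108, 85.7 and 127 CPM against 85.0, 85.6 and 77.2, which are separated by a margin far smaller than the spread of either group. In bulk-HSCs they overlapped, at 103, 91.0 and 124 CPM against 77.2, 92.4 and 98.8.

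For Gimap1 the log2 difference was -0.37 (SE 0.27, adjusted p = 0.816) for LT-HSCs, -0.86 (SE 0.27, adjusted p = 0.174) for ST-HSCs, -0.24 (SE 0.27, adjusted p = 0.838) for bulk-HSCs and -0.49 (SE 0.15, adjusted p = 0.0667) on average. With the young LT-HSC and ST-HSC libraries numbered 3 left out, the LT-HSC difference was -0.24 and the average -0.43 (adjusted p = 0.155). Over single libraries left out, the adjusted p of the average ran from 0.0331 to 0.132. The ST-HSC difference was -0.52 without aged ST-HSC replicate 1, and the average difference then passed the threshold at -0.38 (SE 0.10, adjusted p = 0.0331). It also passed without young LT-HSC replicate 2 (adjusted p = 0.0467), aged ST-HSC replicate 2 (adjusted p = 0.0469) or aged ST-HSC replicate 3 (adjusted p = 0.0478), and in 6 of 28 settings in all. With the count of detected genes in the model it was -0.25 (adjusted p = 0.811). DESeq2 called Gimap1 in ST-HSCs (adjusted p = 0.0286) and on average (adjusted p = 0.00975).

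Gimap6 had an average difference close in size to that of Gimap1, with 1 aged library going the other way. In LT-HSCs it was at 384, 280 and 319 CPM in young and 226, 193 and 223 CPM in aged mice, without overlap. In bulk-HSCs it was at 227, 266 and 270 against 183, 172 and 223 CPM, separated by a small margin. In ST-HSCs the young libraries were at 256, 246 and 285 CPM and the aged at 167, 141 and 360, so that aged replicate 3 was above all young libraries of that fraction.

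For Gimap6 it was -0.61 (SE 0.24, adjusted p = 0.432) for LT-HSCs, -0.24 (SE 0.24, adjusted p = 0.916) for ST-HSCs, -0.40 (SE 0.24, adjusted p = 0.551) for bulk-HSCs and -0.42 (SE 0.14, adjusted p = 0.0890) on average. Without aged ST-HSC replicate 3, Gimap6 was called in ST-HSCs (-0.77, adjusted p = 0.0396) and on average (-0.59, adjusted p = 0.000353), and leaving out any other single library called it in neither. With the count of detected genes in the model the average was -0.27 (adjusted p = 0.767). It was -0.40 (adjusted p = 0.159) with the young LT-HSC and ST-HSC libraries numbered 3 both left out.

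Gimap8 and Gimap9 did not pass in any age comparison, and their young and aged libraries overlapped in all 3 fractions. Gimap8 was at 178, 189 and 117 CPM in young and 149, 117 and 167 CPM in aged LT-HSCs, with an average log2 difference over the fractions of -0.16 (SE 0.13, adjusted p = 0.568). In bulk-HSCs its estimate had the opposite sign, 0.17 (SE 0.22). The LT-HSC estimate of Gimap8 was -0.17 (SE 0.22), and -0.36 (adjusted p = 0.666) without the young LT-HSC and ST-HSC libraries numbered 3. Gimap9 ranged from 19.0 to 57.9 CPM in young and from 20.6 to 33.8 CPM in aged libraries, with an average difference of -0.26 (SE 0.21, adjusted p = 0.573). With the young LT-HSC and ST-HSC libraries numbered 3 both left out, the average difference of Gimap9 was 0.0027. Its LT-HSC difference was then -0.07, beside -0.47 with all libraries.

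Gimap4, which has been linked to apoptosis and the cytoskeleton of T cells, varied widely among libraries of 1 group. In young ST-HSCs it was at 17.05, 0.408 and 3.23 CPM, in aged ST-HSCs at 1.40, 2.27 and 2.68 CPM. A single library, young ST-HSC replicate 1, carried the higher young mean, and the log2 difference in ST-HSCs was -1.70 (SE 0.90, adjusted p = 0.602) with it and 0.22 without it. In LT-HSCs the values were 22.8, 33.1 and 4.74 CPM against 15.98, 9.89 and 19.4. The LT-HSC difference was -0.42, and -0.90 with the young LT-HSC and ST-HSC libraries numbered 3 both left out. The average over the fractions was -0.71 with all libraries and -0.98 without these 2.

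Gimap7, whose protein is known for activating the GTPase of another GIMAP, was near the limit of detection. It was at 0 counts in 7 of 18 libraries, among them young LT-HSC replicate 1, young ST-HSC replicate 3 and all 3 young bulk-HSC libraries, where 0 counts allow up to 3, or 0.148 CPM on average. In the other 11 libraries it had 14 to 88 counts, at most 4.31 CPM. Aged bulk-HSCs held 0, 2.03 and 1.56 CPM, a mean at least 8.08-fold higher than the floor of 3 counts in young bulk-HSCs, and this difference did not pass (adjusted p = 0.285). The young bulk-HSC libraries had 29 to 67 genes of that well-covered set at 0, and whether the zeros of Gimap7 are of this kind was not tested.

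Over the family, the estimates leaned to lower levels in aged cells. In LT-HSCs 8 of 8 members had a negative log2 difference, in ST-HSCs 7 and in bulk-HSCs 6, with medians of -0.40, -0.67 and -0.27. Some of these signs rest on estimates far smaller than their SE. Examples are Gimap5 (-0.02, SE 0.21) and Gimap7 (-0.09, SE 2.25) in LT-HSCs and Gimap4 (-0.01, SE 0.87) in bulk-HSCs, and each of these turned positive with limma-voom. Over all genes tested the medians were 0.04, 0.02 and 0.03, and 53.6%, 52.4% and 53.0% of genes had a positive difference. Averaged over the fractions 7 members were negative and Gimap7 was positive, with a median of -0.34 beside 0.04 for all genes (these medians were the same with Gimap7 at its bound), and 3 members (Gimap1, Gimap3 and Gimap6) had an unadjusted p under 0.05, as did 19.7% of all genes. DESeq2 called 2 members on average (Gimap1 and Gimap3) and limma-voom 1 (Gimap3). The number of detected genes, which is mostly lower in young libraries, had r = -0.50 with Gimap1, -0.54 with Gimap6 and -0.53 with Gimap9 over the 18 libraries. In the same order, r was -0.78, -0.23 and -0.63 over the 9 young libraries and 0.33, -0.16 and 0.03 over the 9 aged. The part of this number in these estimates was not tested. The members share libraries and a locus and are not independent, and no test was made over the list.

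Calls in single fractions were absent from the family with edgeR. The number of members called was 0 for LT-HSCs (0.445% of all genes tested were called), 0 for ST-HSCs (0.851%) and 0 for bulk-HSCs (1.98%). At an unadjusted p under 0.05 there were 2 members for LT-HSCs, 3 for ST-HSCs and 2 for bulk-HSCs, where 8.81%, 9.67% and 13.3% of all genes reached that level. DESeq2 called 0, 1 and 0 members, and limma-voom with sample weights 0 in each. The libraries of the 2 ages did not overlap for 2 members in each fraction, lower in aged mice each time, where 16.1%, 17.8% and 22.7% of all genes tested did not overlap in the same order of fractions. These members were Gimap1 and Gimap6 in LT-HSCs, Gimap1 and Gimap3 in ST-HSCs, and Gimap3 and Gimap6 in bulk-HSCs.

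The summed CPM of the 8 members ran from 719 to 852 in young and from 529 to 634 in aged LT-HSCs. In bulk-HSCs it ran from 564 to 638 in young and from 453 to 555 in aged mice, again without overlap. In ST-HSCs the ranges, 554 to 698 and 403 to 619, overlapped through aged replicate 3, the library with the high Gimap6 value. This sum is mainly a measure of Gimap6, Gimap8, Gimap1 and Gimap5, and it is given without a test.

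**Figure D3:**
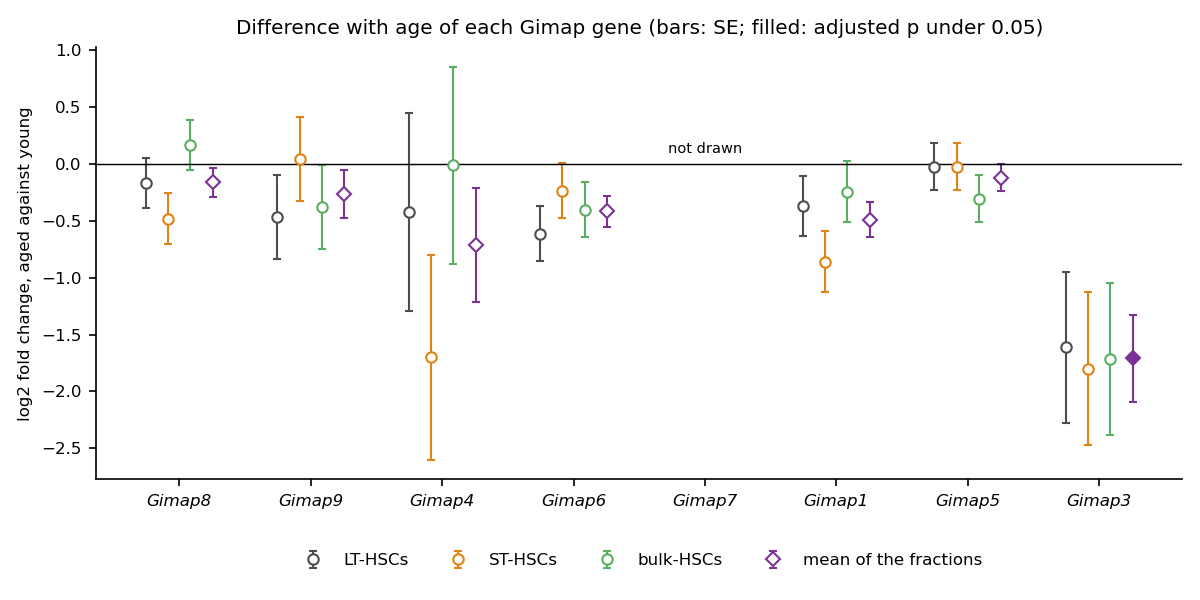
The y axis is the log2 fold change of aged against young cells, with the SE as bars, for 7 Gimap genes in each fraction (circles) and averaged over the fractions (diamonds). A filled symbol marks an adjusted p under 0.05, which only the averaged value of Gimap3 reached. Gimap7 is not drawn, because its young bulk-HSC libraries were all at 0.

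The age effect itself was compared between fractions by interaction terms. Between LT-HSCs and ST-HSCs 0 members were called, where 0% of the genes tested were called and no member had an unadjusted p under 0.05 (3.92% of all genes did). Against bulk-HSCs 0 members were called (0.00781% of the genes tested), and 1, Gimap7, had an unadjusted p under 0.05 (5.82% of all genes did). DESeq2 and limma-voom called 0 members in both. For Gimap3 the difference between the age effects was 0.19 (SE 0.92) for LT-HSCs against ST-HSCs and 0.11 (SE 0.91) against bulk-HSCs, neither of them past the threshold, and with these errors even large differences between fractions could not be shown.

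Between fractions of the same age, several members were higher in LT-HSCs than in ST-HSCs at both ages, without passing the threshold. Gimap3 was at 43.1 ± 25.7 CPM (SD, n = 3) in young LT-HSCs and 14.4 ± 4.88 in young ST-HSCs, a log2 difference of 1.58 (SE 0.66, adjusted p = 0.394), and at 14.1 ± 7.98 against 4.14 ± 3.18 in aged mice, a difference of 1.77 (SE 0.67). The adjusted p was 1 in aged mice. The fractions overlapped at both ages, through LT-HSC replicate 2, at 16.8 CPM in young mice (highest ST-HSC library 19.0) and 5.77 CPM in aged mice (highest ST-HSC library 7.81). Without the young libraries numbered 3 the young difference was 1.12 (adjusted p = 0.836).

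Gimap5 was at 94.1 ± 17.5 CPM in young LT-HSCs and 65.7 ± 5.03 in young ST-HSCs, and all 3 LT-HSC libraries were above all ST-HSC ones. In aged mice it was at 92.5 ± 0.937 against 64.7 ± 4.11, again without overlap. The log2 difference was 0.52 at each age (SE 0.21, adjusted p = 0.364 in young mice), and 0.32 in young mice without the libraries numbered 3 (adjusted p = 0.852). Gimap4 was at 15.1 ± 4.82 CPM in aged LT-HSCs and 2.12 ± 0.654 in aged ST-HSCs, the largest fitted difference between fractions of a member other than Gimap7, 2.83 on the log2 scale (SE 0.93, adjusted p = 0.941), and the lowest LT-HSC library, 9.89 CPM, was above the highest ST-HSC one, 2.68 CPM. The share of all genes without overlap was not counted between fractions. In the age comparisons it was 16.1% to 22.7%. Gimap7 was at 0 in young bulk-HSCs. Against the floor of 3 counts there, its mean was at least 13.8-fold higher among young LT-HSCs (0, 4.31 and 1.82 CPM). Among young ST-HSCs (2.79, 3.72 and 0 CPM) it was at least 14.6-fold higher. Neither difference passed (adjusted p = 0.321 and 0.397), and the floor covers counting error only.

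Gimap8, at the other end of the cluster, was the member with the smallest p between young LT-HSCs and young bulk-HSCs. It was at 162 ± 38.8 CPM in young LT-HSCs and 96.5 ± 24.02 in young bulk-HSCs, a difference of 0.74 (SE 0.22, adjusted p = 0.181). The ranges overlapped through young LT-HSC replicate 3, at 117 CPM, and young bulk-HSC replicate 1, at 123 CPM. The call was made by DESeq2 (adjusted p = 0.0224) and with the young LT-HSC and ST-HSC libraries numbered 3 both left out (0.93, adjusted p = 0.0419). Leaving out these libraries also moved Gimap8 in young LT-HSCs against ST-HSCs, from 0.16 to 0.57 (adjusted p = 0.433).

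With edgeR the number of members called was 0 in young LT-HSCs against ST-HSCs (0.429% of the genes tested were called), 0 in young LT-HSCs against bulk-HSCs (0.273%) and 0 in young ST-HSCs against bulk-HSCs (0.164%). It was also 0 in aged LT-HSCs against ST-HSCs (0.00781%), against bulk-HSCs (0%) and in aged ST-HSCs against bulk-HSCs (0%). At an unadjusted p under 0.05 there were 2 members in each of the 3 young comparisons, where 10.4%, 11.5% and 9.63% of all genes reached that level. In aged mice there were 5 of 8 for LT-HSCs against ST-HSCs (3.41% of all genes), namely Gimap1, Gimap3, Gimap4, Gimap5 and Gimap8, 1 against bulk-HSCs (3.29%) and 2 for ST-HSCs against bulk-HSCs (2.70%). DESeq2 called Gimap8 in young LT-HSCs against bulk-HSCs and no member in the other 5, and limma-voom called none in any of the 6. By sign, the young LT-HSC estimate exceeded that of ST-HSCs for 7 of 8 members and that of bulk-HSCs for 8 of 8, with median log2 differences of 0.40 and 0.51. In aged mice these were 6 of 8 and 7 of 8, with medians of 0.55 and 0.33.

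The order of the 6 groups showed how much each member could be resolved. Gimap1, Gimap3, Gimap5, Gimap6, Gimap8, Gimap4 and Gimap9 had their highest mean in young LT-HSCs. Neighbouring groups in the order overlapped for every member, with 1 exception, Gimap1 in aged LT-HSCs above aged ST-HSCs. From the highest to the lowest group mean, Gimap3 spanned 10.4-fold and Gimap4 9.54-fold, and Gimap1, Gimap5, Gimap6, Gimap8 and Gimap9 spanned 1.46-fold (Gimap9) to 1.94-fold (Gimap1).

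Although the 8 genes are neighbours, their levels moved together only in part. Over the 28 pairs, the Pearson r of log2(CPM + 1) over the 18 libraries, which share depth, normalization and the 6 groups, was positive in 24, with a median of 0.21, and above 0.5 in 3 pairs, each with Gimap3. These were Gimap3 with Gimap9 (0.60), Gimap6 (0.58) and Gimap5 (0.57). After the group means were subtracted the median was -0.05, with 11 of 28 pairs positive. Gimap3 and Gimap9 were at 0.68, and Gimap4 and Gimap5 were at -0.58. Residuals within groups of 3 rest on few degrees of freedom, and these values are descriptions.

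**Figure D4:**
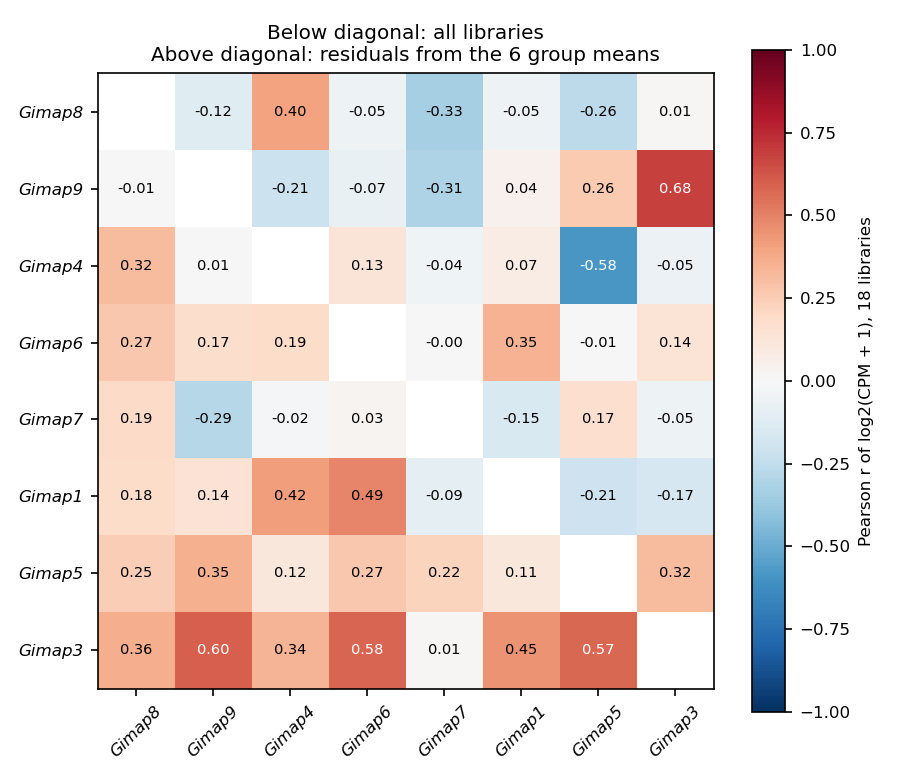
Rows and columns are the 8 Gimap genes in cluster order, and each cell gives Pearson r of log2(CPM + 1) between 2 genes over 18 libraries. Cells below the diagonal use all libraries as they are, and cells above it use residuals from the 6 group means. Most of the positive values below the diagonal, apart from those of Gimap3 with Gimap9 and of Gimap4 with Gimap8, are smaller above it.

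The genes whose pattern was most like the mean of the standardized members over the 18 libraries were Epb4.1l4b (r = 0.81), Mlxip (0.78), Nelfa (0.77), Eif4a2 (0.77) and Zcchc7 (0.77), of 12800 compared. Those most unlike it were Actg1 (-0.86), Psme4 (-0.81) and Def8 (-0.79). Within groups the likeness was 0.76 for Nelfa and 0.03 for Zcchc7, and that of Actg1 turned to 0.15.

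Genes next to the cluster were described in the same way. Of 43 genes annotated within 300 kb, 20 were in the table and 11 were tested. Of these, 7 had a positive average difference with age (54.7% of all genes did), with a median of 0.26, and 1 was called (6.75% of all genes were), Tmem176a, which rose by 0.41 on the log2 scale (adjusted p = 0.00661). It lies beyond the Gimap3 end of the cluster, as does Tmem176b, whose average difference was -0.05 (adjusted p = 0.808).

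Partners of GIMAP proteins in survival and autophagy were described from a list of 20 genes, all of them tested. In bulk-HSCs 1 rose and 1 fell, where 1.98% of all genes were called, and on average over the fractions 1 rose and 1 fell, where 6.75% were. Bcl2, the anti-apoptotic protein that Gimap5 has been reported to bind, rose by 0.80 (SE 0.16, adjusted p = 0.0113) in bulk-HSCs and by 0.63 on average (adjusted p = 0.000271). Hspa8, a chaperone of the Hsc70 type, fell by 0.56 (adjusted p = 0.0467) and by 0.44 (adjusted p = 0.00264). The list's median was 0.02 on average over the fractions, beside 0.04 for all genes.

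Other GTPases of immunity, those of the GBP and IRG families, are induced by interferon and act on pathogens in cells. Of 19 listed, 18 were tested, and on average over the fractions 1 was called, no larger a share than the 6.75% of all genes. This was Gbp4, which rose by 0.90 (SE 0.22, adjusted p = 0.0157). Their median difference with age was 0.30 for LT-HSCs, 0.31 for ST-HSCs and -0.21 for bulk-HSCs, whereas that of the Gimap family was negative in each. The difference between the lists was not tested.

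Lymphocytes hold far more Gimap RNA than most cells, so their markers were measured in the same libraries. Of 18 T cell markers 15 were in the table and 4 were tested, and Cd3e, Cd3g, Cd8a and Bcl11b were at 0 in all 18 libraries. The summed T cell markers ran from 20.9 to 63.9 CPM in young and from 36.7 to 58.3 CPM in aged libraries, with Cd247 (0 to 16.8 CPM) and Lck (2.72 to 16.5 CPM) among the detected ones. Of 12 B cell markers Ms4a1, Pax5, Ebf1, Igll1 and Blk were at 0 in all 18 libraries (sum 22.4 to 51.0 CPM). Of 10 NK cell markers 8 were at 0 in all. Of the 2 tested, Klrb1c rose with age (log2 3.44 on average, adjusted p = 8.83e-05), where 6.75% of all genes were called. Nkg7 had negative estimates, -0.08 (SE 1.57) in LT-HSCs, -0.66 (SE 1.56) in ST-HSCs and -0.32 (SE 1.56) in bulk-HSCs, without passing. Klrb1c made up nearly all of the summed NK cell markers, 0.227 to 26.2 CPM in young and 21.9 to 137 CPM in aged libraries. Endothelial cells also express Gimap genes, and Cdh5, their defining marker, was at 0 in all 18 libraries, with a summed list of 370 to 593 CPM in young and 404 to 579 CPM in aged libraries. Of 9 endothelial markers tested 1 was called on average (6.75% of all genes were), Cldn5, which rose by 2.82 (adjusted p = 0.00663). Kdr (1.27, adjusted p = 0.129) and Pecam1 (0.39, adjusted p = 0.121) did not pass. By sign, 6 of the 9 were higher on average in aged cells and 3 lower. Of 6 mature myeloid markers, 4 higher and 2 lower on average, 1 was called, Prtn3, which rose (0.93, adjusted p = 0.00196). Of 6 erythroid markers, 3 higher and 3 lower on average, Epor and Hba-a2 were called higher on average, where 6.75% of all genes were called. In bulk-HSCs Hba-a2 was called higher (adjusted p = 0.0467) and Car1 lower, where 1.98% of all genes were called. Of 9 megakaryocyte markers, 9 higher and 0 lower on average, Vwf, Selp and Itgb3 were called higher on average, beside the same 6.75%. Their list had a sum of 292 to 1260 CPM in young and 921 to 2137 CPM in aged libraries. The part of these cell types in the Gimap values was not tested.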

How the data were processed

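RNA-seq libraries (ribosomal RNA depleted total RNA) were made from the 3 sorted fractions of young and aged mice. The authors deposited 1 table of whole read counts per gene symbol, from alignment to mm10 with HISAT2 2.1.0, SAMtools 1.7 and StringTie 1.3.4d, per the labels and the study's methods. The values are not normalized. The strand setting and the handling of reads with several matches are not given in the sources used here.

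Genes with a mean of at least 1 CPM were tested with edgeR 4.0.16 (quasi-likelihood test, TMM, 1 model of the 6 group means, R 4.3.3), with Benjamini-Hochberg adjustment over all 12808 tested genes and a threshold of 0.05. The age effect averaged over the fractions gives each fraction equal weight. An adjusted p without a tool named is from this fit. No library was left out. Alternatives were other normalizations (library size, RLE), filters on low counts, samples in the fit, DESeq2 1.42.0, limma-voom (limma 3.58.1), a replicate block, the number of genes detected as a covariate, and leaving out each library. Scripts were tested on simulated data. Annotation and sequences were read with Python 3.11.15 and Biopython 1.88 from GENCODE and RefSeq files of mm10. Intervals and floors (3 counts) cover counting error only.

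The family and the lists were chosen with earlier results of these data known, although the rule for members uses no value. All 8 members are named. From the other lists genes past the threshold in an age comparison could be named, else the 3 of smallest p, as could flanking genes within 300 kb and the 5 genes most like and 3 most unlike the mean standardized members.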

Additional observations from a re-analysis of the deposited data

How the results depend on the processing

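Over all alternatives, 211 counts of called members stayed within 1.5 times the reported count and 12 did not. The reported count was 0 in every comparison but the averaged age effect, and counts that stayed at 0 are among the 211. That share is therefore no measure of how stable the calls are. In ST-HSCs the count with age, 0, became 1 with DESeq2 and ran from 0 to 1 when single libraries were left out. The averaged count, 1, became 2 with library size alone, 2 with DESeq2 and 0 with the number of genes detected as a covariate, and ran from 1 to 3 over single libraries left out. For young LT-HSCs against bulk-HSCs the count, 0, became 1 with DESeq2 and 1 with the young LT-HSC and ST-HSC libraries numbered 3 left out, an alternative chosen after seeing the data. Averaged Gimap3 passed under 27 of 28 settings, from -1.99 to -1.12 (adjusted p 4.50e-05 to 0.549). The cause of these moves was not tested.

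Some signs turned. With the covariate, LT-HSC values became 0.0173 (Gimap5) and 0.13 (Gimap9), Gimap5 in ST-HSCs 0.00956, bulk-HSC values 0.0519 (Gimap1) and 0.32 (Gimap9), and averaged Gimap9 0.35. With limma-voom, LT-HSC values became 0.0736 (Gimap5) and 1.42 (Gimap7), and Gimap4 in bulk-HSCs 0.23. Without the 2 libraries numbered 3, Gimap5 in LT-HSCs was 0.13 and averaged Gimap9 0.0027. The likeness of Actg1 within groups was 0.15. Over single libraries left out, LT-HSC values ran from -0.89 to 0.12 (Gimap4), -0.12 to 0.14 (Gimap5) and -0.67 to 1.06 (Gimap7), ST-HSC values from -2.26 to 0.22 (Gimap4), -0.0583 to 0.0415 (Gimap5), -0.77 to 0.0069 (Gimap6) and -0.15 to 0.45 (Gimap9), and bulk-HSC values from -0.29 to 0.55 (Gimap4) and -0.51 to 0.0195 (Gimap5).

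Whether equal replicate numbers pair the samples could not be settled. Only 1 of 18 same-age pairs had r over 0.1 (-0.0443 to 0.124), but 13 of 18 libraries correlated best with their own number. With a replicate block the averaged count was 2, with Gimap6 at -0.44 (adjusted p = 0.0405), Gimap7 in LT-HSCs was 0.22 and Gimap4 in bulk-HSCs 0.0089.

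Over all genes, calls with age across settings ran from 9 to 290 (LT-HSCs), 26 to 448 (ST-HSCs), 82 to 741 (bulk-HSCs) and 153 to 1494 on average. Between young fractions they ran from 5 to 387 (LT-HSCs against ST-HSCs), 0 to 438 (LT-HSCs against bulk-HSCs) and 1 to 308, between aged fractions from 0 to 66, 0 to 32 and 0 to 41, and for the interactions from 0 to 83 and 0 to 122. The filter of 10 counts in every library left out Gimap4 and Gimap7. Gimap7 had 0 to 88 counts per library.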
